A study of Rattus norvegicus with 4 samples.

Results

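The annexin genes described here were Anxa1, Anxa2, Anxa3, Anxa4, Anxa5, Anxa6, Anxa7, Anxa8 and Anxa11. These 9 genes were chosen from earlier results of the p75High over p75Low ratios on the same arrays, so their ratios are a description. The fit over all genes also counted calls among them, and those counts are given as a description too and support nothing. Any probe carrying one of these gene names in the array file was taken, which gave 16 of the 41012 probes on the array. Of the 16, 12 passed the brightness filter, and 8 of the 9 genes entered the fit of 22183 genes. Anxa8 was the gene that did not.

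Olfactory ensheathing cells, the glia that accompany olfactory axons, had been cultured from male rats of the Fischer strain. A flow cytometer separated each culture by p75, the neurotrophin receptor encoded by Ngfr, into a p75High and a p75Low population with a stated purity of 98%. There were 4 biological replicates, and each put its p75High cDNA in Cy5 and its p75Low cDNA in Cy3 on 1 array. The cells carried no other treatment in the labels. No ages, passage numbers or numbers of animals are given in the sources used here, so the spread between replicates may be partly technical. The p75Low population is defined by a low receptor signal and not by a marker of its own, and the cDNA of both was amplified by a global PCR before 250 ng went into each labelling. The dyes were never exchanged, so a dye effect and a difference between populations cannot be told apart.

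Annexins are cytosolic proteins that bind phospholipid membranes when calcium is present. Each has a conserved core made of repeats that hold the calcium sites, and a tail at the amino end that differs between members and binds partners such as S100 proteins. They take part in membrane trafficking, repair of torn plasma membrane, control of inflammation and the binding of phosphatidylserine on the surface of cells.

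The probes of several members gave unlike ratios, so the sequences on which the values rest are shown first, as the 60-base probes that the array file lists, printed 5′ to 3′. The first pair are the Anxa3 probes with the lowest ratios, which begin at bases 252 and 745 of its transcript. The Anxa4 and Anxa2 probes are those with the highest mean ratios of the family. The Anxa5 and Anxa7 pairs are probes of 1 gene whose ratios differed on some arrays. The capitals mark a run of 13 bases that the Anxa5 probe at 853 and the Anxa7 probe at 1409 share.
Anxa3 at 252: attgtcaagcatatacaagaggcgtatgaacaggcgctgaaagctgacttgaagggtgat
Anxa3 at 745: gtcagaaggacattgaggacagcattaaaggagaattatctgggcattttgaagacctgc
Anxa4 at 794: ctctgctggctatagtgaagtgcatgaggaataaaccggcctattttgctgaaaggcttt
Anxa2 at 968: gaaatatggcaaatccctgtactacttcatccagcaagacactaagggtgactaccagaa
Anxa5 at 664: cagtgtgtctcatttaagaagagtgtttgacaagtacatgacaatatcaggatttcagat
Anxa5 at 853: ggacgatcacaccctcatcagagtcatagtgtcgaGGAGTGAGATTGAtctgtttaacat
Anxa7 at 1409: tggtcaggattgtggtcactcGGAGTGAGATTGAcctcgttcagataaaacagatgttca
Anxa7 at 1469: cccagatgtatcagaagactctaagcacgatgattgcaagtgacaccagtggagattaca

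The run GGAGTGAGATTGA was held by 2 of the 41012 probes, or 0.00488% of them, on the strand that the file prints. The next longest run between probes of different members was 11 bases long, in the Anxa1 probe at 1295 and the Anxa2 probe at 968. All other pairs of members shared 9 bases or fewer. The share of G and C in the 16 probes lay between 35.0% and 55.0%. On the rat build rn4, which the file headers name, 7 of the 16 probes had a genomic span longer than the probe and so crossed an intron, the Anxa3 probe at 252 (chr14:14275233-14278808, minus strand) among them. The Anxa3 probe at 745 lay within 60 genomic bases (chr14:14260960-14261019, minus strand). 1 reading frame, counted along the transcript, was free of stop codons in both of these probes. The remaining Anxa3 probe, at 1288 (chr14:14245218-14245277), held a stop codon in that frame.

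Values below are log2 ratios of p75High over p75Low, listed for replicates 1 to 4, with the mean ± SD over n = 4 arrays. A gene is represented by the brightest of the probes that passed the filter, and is counted as higher or lower where its ratio passed an adjusted p of 0.05 in limma across all 22183 genes. Over all genes 69 were counted as higher, or 0.311%, and 97 as lower, or 0.437%, while 1287 and 1534 had an unadjusted p under 0.05. Of the 8 annexins tested, 0 were higher and 1 was lower, which was Anxa3, and 7 were not called. The contrast that chose the family is the one counted here, so nothing is read from the comparison of these shares.

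Anxa3 encodes a short-tailed annexin found in neutrophil granules and was the lowest member by far. Its probe at 745 read -5.87, -6.52, -6.82 and -5.76, a mean of -6.24 ± 0.51, which is a ratio of 75.7-fold and the 4th lowest of the 22183 genes. The Cy5 brightness of that spot, before any correction, was 328, 196, 241 and 185 in p75High, and the Cy3 brightness was 20618, 10490, 16953 and 8556 in p75Low. Both channels were well above background on all 4 arrays. After normalization the log2 intensity lay between 7.04 and 8.17 in p75High and between 13.56 and 14.35 in p75Low. These ranges did not overlap for Anxa3. They come from the intensities behind the ratios that chose the family. The share of all genes without overlap was not counted, so nothing is read from it.

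The other probes of Anxa3 were less uniform. The probe at 252 read -5.67, -6.35, -6.00 and -1.27, a mean of -4.82 ± 2.38, so replicate 4 stood apart from the others. On that array its p75Low brightness was 805, against 10797 to 25824 on the other arrays. The probe at 1288 read -4.59, 2.78, -4.35 and -0.33, a mean of -1.63 ± 3.53, and on replicate 2 it was brighter in p75High, at 6592 against 503. The difference between the probes at 745 and 1288 was -1.28, -9.30, -2.47 and -5.43. With the median over its probes in place of the brightest, the mean of Anxa3 was -4.82 and 0 annexins were called. With any replicate left out the mean stayed between -6.40 and -6.05 and 0 annexins were called. In the fits without a replicate, limma called 0 genes in the whole table, where 1877 to 2372 had an unadjusted p under 0.05.

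**Figure D1:**
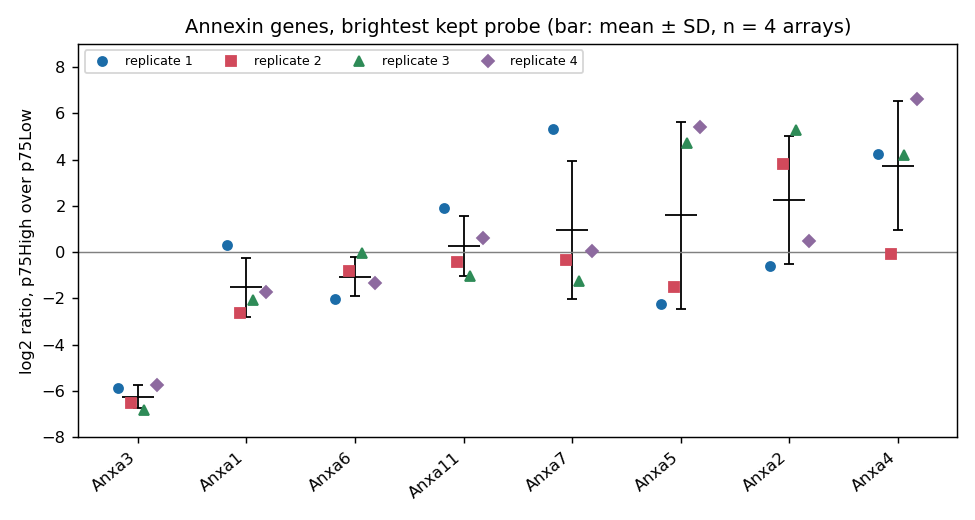
Log2 ratio of p75High over p75Low (vertical axis) for the 8 annexin genes tested, ordered by mean, with a point for each of 4 replicate arrays and a bar for the mean ± SD. Anxa3 lies between -6.82 and -5.76 on all arrays, and Anxa5 spans -2.25 to 5.39.

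Markers of microglia and macrophages had low ratios, as Anxa3 did. Of 16 listed genes of microglia and macrophages 14 were tested, 8 were counted as lower and 0 as higher, and the median of their means was -4.57 beside -0.03 for all genes. The summed normalized intensity of these 14 genes was 13143 to 19472 in p75High and 268054 to 385551 in p75Low. Among the markers with the largest differences, Csf1r, the growth factor receptor of macrophages, read -5.57, -6.90, -6.20 and -5.64 by its brightest probe. The other Csf1r probes had means of -0.25 and 0.41. Itgam, an integrin subunit of myeloid cells, had a mean of -5.77 ± 0.33, Ctss, a lysosomal protease, -6.11 ± 0.79, and Adgre1, a macrophage surface receptor, -5.87 ± 0.69. Each of the 14 genes was above background in both populations on at least 1 array. In sorted populations, fewer cells of a type and less RNA per cell cannot be told apart, and the part of these markers in the Anxa3 ratio was not tested.

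Among 11218 genes with a gene symbol, the 4 with array ratios nearest to those of Anxa3, by Euclidean distance over the 4 arrays, were Fcgr2a at 0.61, Csf1r at 0.79, Cxcl13 at 0.95 and Adgre1 at 0.97. Fcgr2a, which binds the constant region of IgG on myeloid cells, read -5.61, -6.85, -6.37 and -5.80. Cxcl13, a chemokine for B cells, read -5.39, -6.92, -6.70 and -5.05. These genes were picked for their likeness to Anxa3, so the shared pattern is no finding.

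Of 12 glial markers tested, 11 had a mean above 0 and 1 below, and 4 were above 0 on all 4 arrays. The median of the list was 1.99, and 1 gene was counted as higher, Ngfr, at 6.07, 6.17, 5.02 and 5.96. The summed intensity of the 12 genes was 42233 to 54746 in p75High and 4793 to 15731 in p75Low. Sox10, a transcription factor of the glial lineage, had a mean of 4.56 ± 1.90 and Ncam1, a cell adhesion molecule, of 2.89 ± 2.65, and neither was called. Each of the 12 was above background in both populations on at least 1 array, and the ratio of Ngfr followed the sort. Of 10 fibroblast genes 6 were tested and 0 were called, with a median of -0.94, although their summed intensity was higher in p75High, at 60635 to 84229 against 13284 to 34944. Their means lay on both sides of 0. Postn, the matrix protein periostin, had a mean of 4.80 ± 1.60 and Col1a1, a collagen chain, of 2.73 ± 1.20, both above 0 on all 4 arrays. Col1a2, the other chain of that collagen, had a mean of -2.71 ± 1.48 and Col3a1, another collagen, of -2.42 ± 3.91. Fn1, fibronectin, had a mean of -0.89 ± 2.00 and Thy1, a surface glycoprotein, of -0.99 ± 0.38. Thy1 was well above background in p75High on 2 arrays, and its mean was -2.96 with the scanner's ratios.

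**Figure D2:**
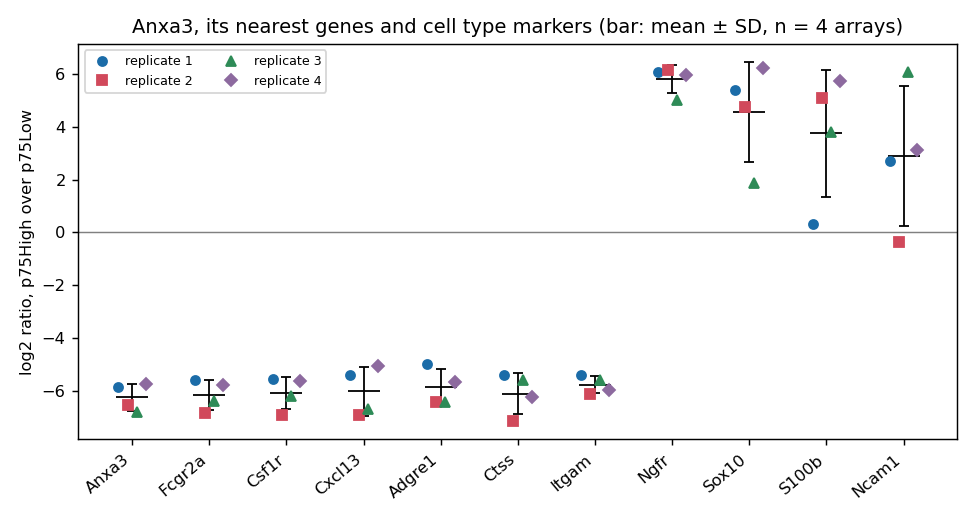
Log2 ratio of p75High over p75Low for Anxa3, the genes with the nearest ratios, and markers of macrophages (Ctss, Itgam) and glia (Ngfr, Sox10, S100b, Ncam1), with a point for each of 4 replicate arrays and a bar for the mean ± SD. Anxa3 at -6.24 lies beside its nearest genes and the macrophage markers, whose means are -6.16 to -5.77, and Ngfr lies at 5.80.

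Anxa4 and Anxa5, short-tailed annexins of epithelial membranes and of phosphatidylserine binding, had positive means and no uniform sign. The Anxa4 probe at 794 (chr4:120895594-120897086, minus strand) read 4.24, -0.08, 4.19 and 6.60, a mean of 3.74 ± 2.78, or 13.3-fold. It was the highest member. Its brightness in p75High was 2413, 80.5, 2694 and 15714. In p75Low it was 50.4, 40.1, 51.1 and 103, so replicate 2 was dim in both. The p75Low background was 23.0, 25.0, 23.0 and 28.0, so the size of the ratio rests on faint p75Low spots. The mean of Anxa4 was 4.73 with the scanner's ratios and 2.39 with the median over probes. The second Anxa4 probe, at 993, read -0.85, -0.28, 4.33 and 0.96. The probes thus stood within 0.20 of each other on replicates 2 and 3 and over 5 apart on replicates 1 and 4, at 5.09 and 5.64. On replicate 2 the probe at 993 was not above background in either channel, and that at 794 was not in p75High. The closeness on that array is therefore no measure of agreement.

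The Anxa5 probe at 853 (chr2:122950184-122950243, minus strand) read -2.25, -1.51, 4.71 and 5.39, a mean of 1.59 ± 4.02. Replicates 1 and 2 were below 0 and replicates 3 and 4 well above it, and this was the widest SD of the family. On replicate 1 the brightness was 1678 in p75High and 8084 in p75Low, and on replicate 4 it was 11098 and 187. The Anxa5 probe at 664 (chr2:122952205-122953409) read -3.86, 0.10, 2.57 and 0.21. Its mean was -0.25 ± 2.66. Its sign was that of the probe at 853 on replicates 1, 3 and 4, but the sizes differed. The ratio at 664 minus that at 853 was -1.61, 1.61, -2.14 and -5.18. On replicate 2 the probe at 664 was not above background in either channel, so its sign there is no measure of a difference.

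The genes whose ratios were nearest to Anxa4 were further away than those of Anxa3. They were Blm, a DNA helicase, at 1.60, Selenok, a selenoprotein of the endoplasmic reticulum, at 1.77, Fxyd5, a regulator of the sodium pump, at 1.79, and Arb2a at 1.89. Each read between -0.69 and 0.08 on replicate 2, where Anxa4 read -0.08. These genes were picked for their likeness to Anxa4, so the shared pattern is no finding.

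Anxa8 had 1 probe (chr16:9724199-9724489), which was not well above background in either channel on any array. Its readings of 0.01, 0.00, 0.15 and -0.26 are therefore no measure of a difference.

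Anxa2 forms a complex with S100a10 that binds plasminogen and its activator at the cell surface. Its probe at 968 (chr8:73933151-73933732, plus strand) read -0.58, 3.82, 5.28 and 0.49, a mean of 2.25 ± 2.75, or 4.77-fold. Replicates 2 and 3 were high and replicates 1 and 4 were near 0. The brightness in p75High was 13171, 88519, 36757 and 113, and in p75Low 24126, 2958, 519 and 38.0, so the gene was dim in both populations on replicate 4 alone. RefSeq names 8 pseudogenes after Anxa2, and signal from such copies was not separated here. A probe that the array file names for an annexin II pseudogene, outside the 9 genes, read 1.56, 5.09, 3.57 and 0.15.

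S100a10, the partner of Anxa2 in that complex, read 0.77, 6.60, 7.80 and 0.09, a mean of 3.81 ± 3.95. Replicates 2 and 3 were the high arrays for this gene also. The S100a10 probe was well above background on 3 arrays in each channel. A link between the ratios of S100a10 and Anxa2 was not tested. Of the 9 listed S100 and EF-hand partners 7 were tested, 0 were called in either direction, and the median of their means was 0.04. S100a4, a calcium binder of motile cells, read 5.0, 0.35, 1.46 and 7.01, and S100b, a glial marker, read 0.33, 5.11, 3.82 and 5.75. S100a6, a partner of Anxa2 and Anxa11, had a mean of -0.90 ± 1.71, S100a13 of -1.07 ± 2.17 and S100a1 of 0.04 ± 0.91. Pdcd6, the calcium sensor that binds Anxa7 and Anxa11, had a mean of -0.32 ± 0.21. It was well above background in p75High on 2 arrays, and its mean was -1.36 with the scanner's ratios.

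Plat, Plaur and Plg act in plasminogen activation, and their means lay on both sides of 0. Plat, the tissue activator that Anxa2 binds, read 4.48, 8.55, 4.15 and 5.27, a mean of 5.61 ± 2.01, and was above 0 on all 4 arrays and not called. Plaur, the urokinase receptor, read -0.37, 5.64, -2.45 and -0.37, a mean of 0.61 ± 3.49, so replicate 2 alone was above 0. Plg, plasminogen itself, had a mean of -0.52 ± 0.80. Neither Plaur nor Plg was called.

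**Figure D3:**
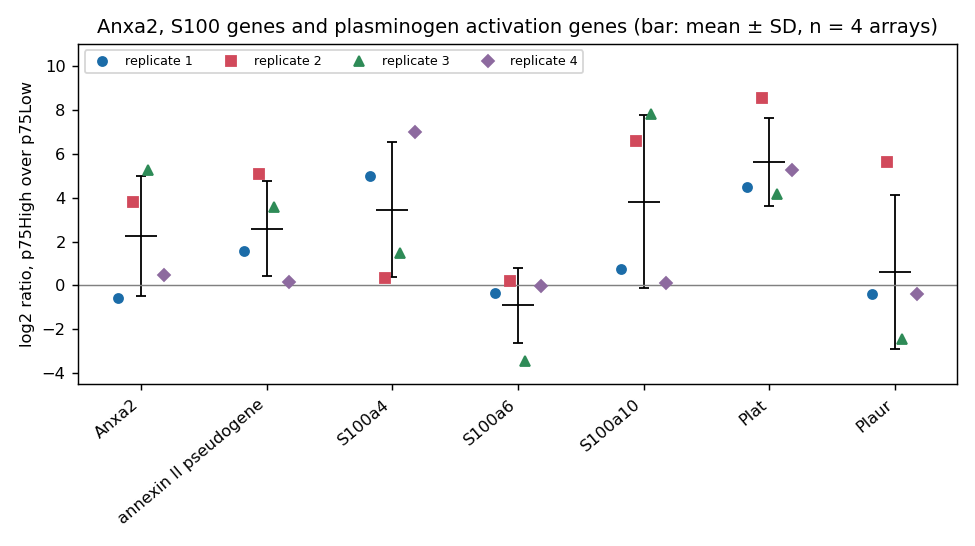
Log2 ratio of p75High over p75Low for Anxa2, the annexin II pseudogene probe, S100 genes and genes of plasminogen activation, with a point for each of 4 replicate arrays and a bar for the mean ± SD. Anxa2 and S100a10 are highest on replicates 2 and 3, and Plat lies between 4.15 and 8.55.

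Anxa1, the glucocorticoid-induced annexin that acts on formyl peptide receptors, had a negative mean. Its probe at 1047 (chr1:223478718-223478777, minus strand) read 0.31, -2.61, -2.09 and -1.71, a mean of -1.53 ± 1.28, or 2.88-fold. Replicate 1 was the only array not below 0, and there the brightness was 865 in p75High and 515 in p75Low. The other arrays were brighter in p75Low, at 2486 to 4553 against 707 to 1779. The second Anxa1 probe, at 1295, read 0.05, 0.25, 1.30 and 0.39. It did not pass the filter, since it was above background on 1 array in p75High and on 0 in p75Low. Of 14 listed genes of formyl peptide receptors, phospholipases and glucocorticoid signalling 5 were tested, 0 were called and the median was 0.05. Fpr1, a formyl peptide receptor, had a mean of 0.02 ± 0.24, Alox5, a lipoxygenase, 0.40 ± 0.61, and its activating protein Alox5ap 0.05 ± 0.15. Ptgs2, a cyclooxygenase, had a mean of 0.83 ± 0.58 and Nr3c1, the glucocorticoid receptor, of -0.41 ± 3.12. Fpr1 and Alox5 were each well above background in p75Low on 2 arrays. The mean of Alox5 was 1.18 with the scanner's ratios.

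Anxa6, whose protein carries a duplicated core, was below 0 on all 4 arrays and was not called. The probe at 2221 (chr10:40384319-40384378, minus strand) read -2.01, -0.83, -0.04 and -1.34, a mean of -1.05 ± 0.83, or 2.08-fold. Anxa3 and Anxa6 were the 2 of 8 members with 1 sign on all 4 arrays, and over all genes 25.6% had 1 sign. The Anxa6 probe at 1796 did not pass the filter and read 2.11, -0.08, 1.5 and 0.11, so its sign was opposite to that of the brighter probe on replicates 1 and 3. On replicates 2 and 4 it was not above background in either channel, and its readings there are no measure of a difference.

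Anxa7 and Anxa11, which have long tails that bind Pdcd6, had positive means smaller than their SD. The Anxa7 probe at 1469 (chr15:4075590-4075649, plus strand) read 5.34, -0.32, -1.23 and 0.04, a mean of 0.96 ± 2.97. It was well above background in p75High on 1 array, replicate 1, where the brightness was 5694 against 71.6 in p75Low. The probe next to it, at 1409 (chr15:4073581-4075589), did not pass the filter and read 5.42, -4.26, 0.05 and -0.01, the last pair without signal above background in either channel. The ratio at 1409 minus that at 1469 was 0.08 on replicate 1 and -3.94 on replicate 2. RefSeq names 4 pseudogenes after Anxa7, which such probes may not separate. Anxa11 at 1106 (chr16:1487689-1489144) read 1.93, -0.44, -1.01 and 0.62, a mean of 0.28 ± 1.29, with 2 arrays on each side of 0. Without replicate 1 the mean of Anxa7 was -0.50 and that of Anxa11 -0.28.

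**Figure D4:**
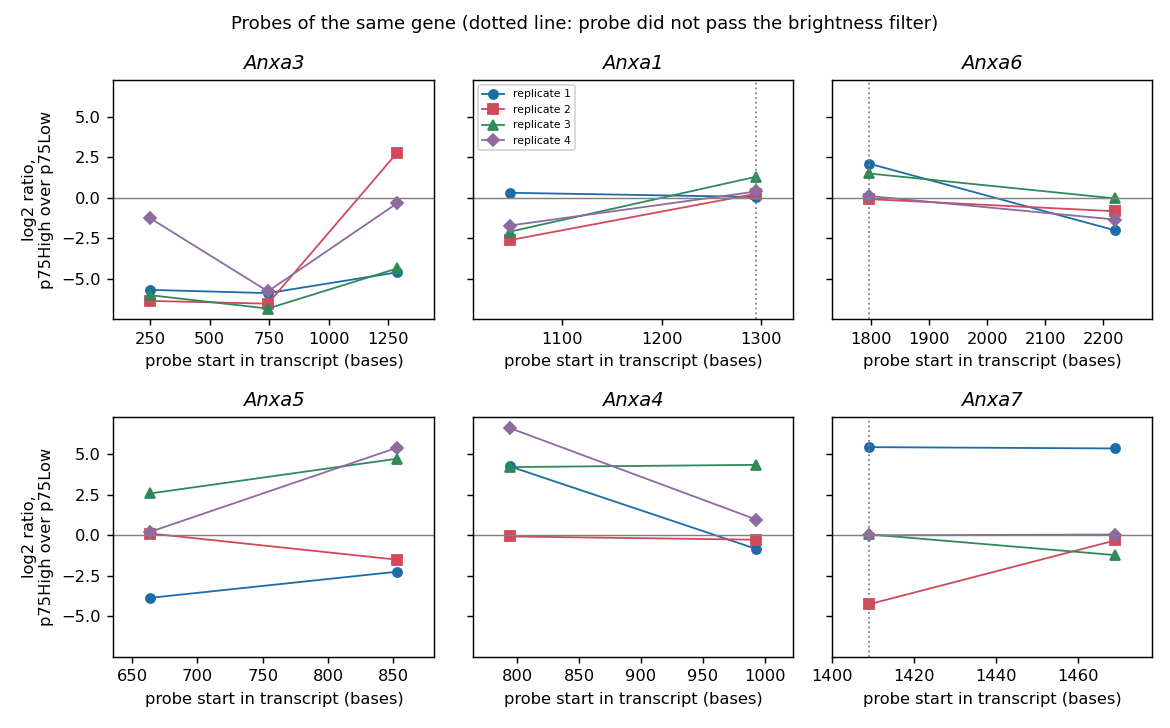
Log2 ratio of p75High over p75Low (vertical axis) against the start of the probe in the transcript (bases) for the 6 annexins with several probes, with a line for each of 4 replicate arrays and a dotted line at a probe that did not pass the brightness filter. The Anxa3 probes at 252 and 745 read alike on replicates 1 to 3 and lie 4.49 apart on replicate 4.

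Probes of 1 gene disagreed across the table and not in annexins alone. For the 3 annexins with at least 2 probes past the filter, the absolute difference between the 2 brightest had a median of 1.60 over 12 readings, and 7 readings, or 58.3%, differed by over 1. For the 2267 genes with at least 2 such probes the median was 1.23 over 9068 readings, and 56.6% differed by over 1. The SD of the 8 members over arrays had a median of 2.02 beside 1.15 for all genes.

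The level of a member was taken as the mean log2 intensity of both channels. It comes from the same intensities as the ratios that chose the family, so its range is a description and not separate support. Anxa2 varied most between arrays, over a range of 6.99, and 0.122% of all genes had as wide a range. Anxa4 ranged over 4.67 and Anxa5 over 4.10, both lowest on replicate 2, and 4.35% and 7.47% of genes ranged as widely. Anxa6 and Anxa3 varied least, over 0.63 and 0.80. The median range was 2.60 for the 8 members and 1.47 for all genes, and 6 of the 8 members were above the latter.

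**Figure D5:**
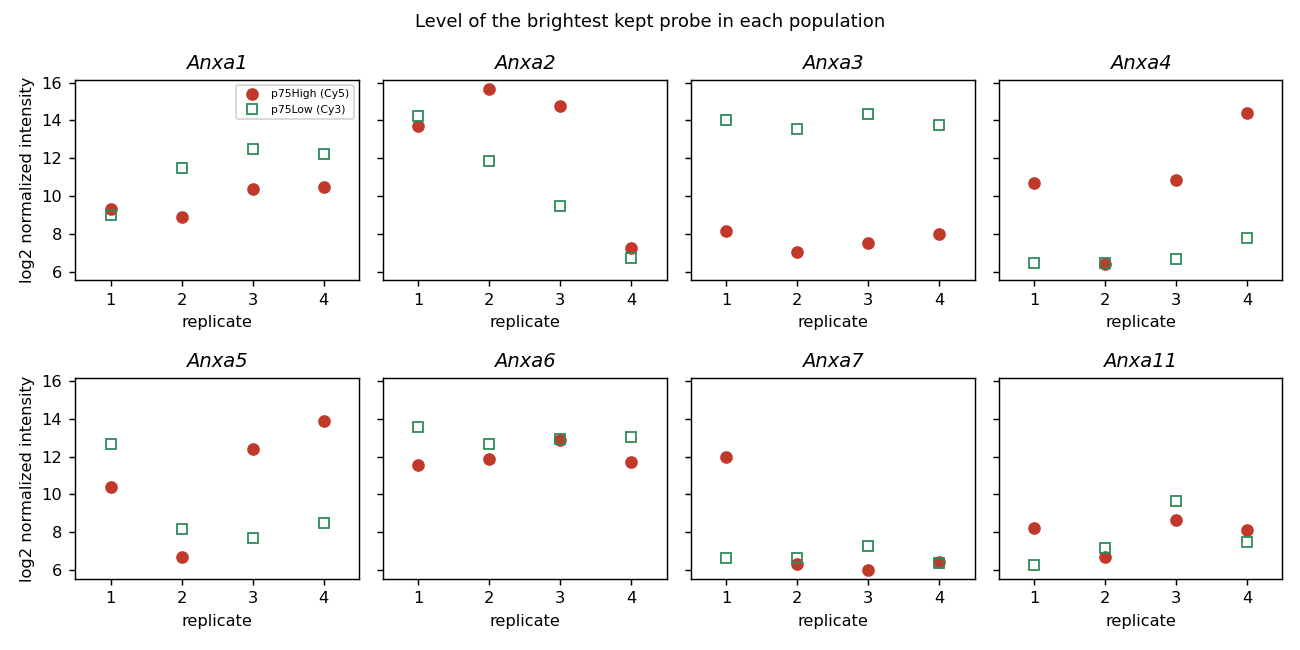
Normalized log2 intensity (vertical axis) of the brightest probe of each annexin in p75High (filled circles, Cy5) and p75Low (open squares, Cy3) on the 4 replicate arrays (horizontal axis). The p75Low points of Anxa3 lie between 13.56 and 14.35, above all its p75High points, and both Anxa2 points are lowest on replicate 4.

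Of 16 genes for membrane repair and exposure of phosphatidylserine 11 were tested and 0 were called, with a median of 0.20. Myof, a ferlin of membrane repair, read 2.81, 3.38, 3.76 and 0.01. It was well above background in p75High on 3 arrays and in p75Low on 0. Its mean log2 intensities were 8.70 in p75High and 6.20 in p75Low, and it was not called. Its mean ratio was 2.49 ± 1.70, and 3.32 without replicate 4, where it showed no difference. With the scanner's ratios the mean was 5.3. On each array, a p75Low reading below the faintest signal well above background was raised to that signal. The difference of means was then 5.48-fold, an average over the 4 arrays that does not hold for replicate 4. Xkr8, a scramblase, had a mean of -0.85 ± 1.30, Ano6, another scramblase, of -0.74 ± 3.27, and Capns1, the small calpain subunit, of -0.74 ± 2.43.

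Of 14 receptors and bridging proteins for phosphatidylserine 10 were tested and 0 were called, with a median of -0.47. Of the 10, 6 had a mean below 0, and 3 were below 0 on all 4 arrays. Itgb5, the integrin subunit that pairs with the alpha V chain, read -5.54, -0.09, -5.45 and -5.91, and its other probe had a mean of 1.21. Gas6, the bridging ligand of the TAM receptors, read -0.68, -2.23, -1.90 and -2.96. Axl, one of those receptors, had a mean of 1.92 ± 1.85 and Mertk, another, of -1.08 ± 1.34. Of the further annexins on the array, Anxa13 had a mean of -0.02 ± 0.53, and the probes of Anxa9 and Anxa10 did not pass the filter.

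Across the series, the 4 arrays held 45018 spots each, and no gene spot was saturated. Signal well above background was found for 22363 to 28016 probes in p75High and for 22955 to 26133 in p75Low, depending on the array. The ratios of different arrays correlated weakly over genes, at 0.17 to 0.25, and genes are not independent replicates.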

How the data were processed

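Agilent rat arrays (design 014879) were used, 4 on 1 slide, with probe coordinates on build rn4, per the file headers. Per the submitters' processing notes, spots were read with Agilent Feature Extraction 10.5. The deposited intensity values were mean spot brightness and median local background per channel, without normalization. The log10 ratios deposited beside them, Cy5 over Cy3, came from dye-normalized signals, per the file headers. The authors' value table equalled them (maximum difference 0, median of each column 0). Depth has no meaning for arrays, and the number of 4 limits the precision.

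In limma 3.58.1 (R 4.3.3), background was corrected by normexp with an offset of 50, and loess with a span of 0.3 was then applied to each array, leaving out the 1639 control spots and the readings marked as outliers (1112, or 0.64%). To be kept, a probe had to exceed background clearly on 3 or more arrays in 1 of the channels, and each gene was represented by its brightest such probe. The log2 ratio, a paired difference, was fitted with lmFit and eBayes over 22183 genes, two-sided, with Benjamini-Hochberg adjustment at 0.05. The fit was tested on simulated data. After removal of group means, channels of the same array correlated at 0.12, 0.06, 0.07 and 0.26, and the highest correlation with another array was 0.05. The design text states that samples were paired.

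The members, lists and tests were chosen with earlier results of these data known. All members and every probe are given. From each list all tested genes are named if 8 or fewer, otherwise the 4 with the largest absolute mean, with Ngfr as the check of the sort. In the list for plasminogen activation, 1 gene that the rule took and the counts of that list are not reported here. Names were updated through RefSeq (GRCr8), where 20406 of the 41012 probes stayed unmatched. Alternatives covered background correction, normalization, the scanner's ratios, the filter, the probe rule, outlier readings, the pairing and each replicate.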

Additional observations from a re-analysis of the deposited data

Results flagged for a closer look

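Of 61 sets of 4 array values examined, 5 held an array far from the other 3 relative to the range of the set, and chance alone gives about 1 in 20. In 1 case the set was an annexin. The Anxa3 probe at 252 read -1.27 on replicate 4, against -6.35 to -5.67 on the other arrays. Among the listed genes, S100a6 read -3.44 on replicate 3, against -0.35 to 0.20 elsewhere. S100a13 read -4.30 on replicate 2, against -0.35 to 0.19. Itgb5 read -0.09 on replicate 2, against -5.91 to -5.45. The median of the S100 and EF-hand list was 0.33 on replicate 1, against 0.18 to 0.20, a gap that is small in size. Causes of these readings were not tested.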

How the results depend on the processing

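Over all genes, 107 were counted as higher and 150 as lower with the scanner's own ratios, 37 and 52 with no filter on dim probes, and 153 and 156 with no replicate block, when the pairing of the channels was ignored. The cause was not tested. Without any single replicate, limma counted 0 to 0 genes as higher and 0 to 0 as lower, while 1877 to 2372 genes had an unadjusted p under 0.05 in these fits. The count of annexins lower was 0 with the median over probes and 0 to 0 without a replicate. With the median over probes, 64 genes were still counted as higher and 88 as lower. In that fit 2849 genes had an unadjusted p under 0.05, and the limma adjusted p of Anxa3 was 0.201. Its call thus depended on the probe rule. Anxa3 was counted as lower in 7 of 12 alternatives, and its mean lay between -6.66 and -4.82. The sign of Anxa7 (-0.50) and Anxa11 (-0.28) turned without replicate 1, and the sign of each of the other 6 members tested held in all alternatives run for it. Anxa4, Anxa7 and Anxa11 could not be tested with the filter that required both channels on all 4 arrays. Fits without a replicate have fewer arrays, amplification by PCR and the dye order were not undone, and dim spots such as those of Anxa7 and Anxa8 limit what their ratios show.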

Other observations

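The pseudogene probe Anxa7-ps1, outside the 9 genes, read 4.09, 0.36, 3.20 and -0.02, a mean of 1.91 ± 2.04, and was well above background on 3 arrays in p75High and 2 in p75Low. The Anxa7 probe at 1469 read 5.34 on replicate 1 and -1.23 on replicate 3.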
